A study of Homo sapiens with 34 samples.

Results

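The surface antigens of B-cell acute lymphoblastic leukemia (B-ALL) described here are 9 genes, *MS4A1* (which encodes CD20), *CD22*, *CD72*, *CD37*, *CD52*, *CD24*, *CD38*, *MME* (which encodes CD10) and *CD34*. They were chosen by gene symbol from 17587 genes listed in at least 1 of 6 tables of group levels, with earlier values of the same 6 comparisons known, so all their changes are given as descriptions and nothing was tested. Of the 9 genes, 8 were listed in all 6 tables, as were 13307 genes in all, and *CD34* was not listed for the knockdown in RS4;11.

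RNA of 34 samples from 3 established human B-ALL cell lines was sequenced, with 3 samples in 10 of the 12 groups and 2 samples each in the shCCND3 group of NALM-6 and the DMSO group of BV-173. NALM-6 carries the ETV6-PDGFRB fusion, RS4;11 the MLL-AF4 fusion and BV-173 the BCR-ABL fusion, and the controls carry the fusion of their line as well. For the knockdown, cells received a lentiviral vector with a scrambled shRNA (the scr groups) or with 1 shRNA against *CCND3* (the shCCND3 groups) and cells with the vector's red fluorescent marker were sorted on day 4 after transduction. *CCND3* encodes cyclin D3, which activates the kinases CDK4 and CDK6. For the drug, cells were collected after 3 days with 1 µM palbociclib, an inhibitor of CDK4 and CDK6, or with its solvent control, DMSO. The knockdown and the drug therefore had separate controls, and transduction, sorting and day of collection differed between the scr and DMSO groups. Values listed for the 3 lines without further names follow the order NALM-6, RS4;11, BV-173. The question was which transcripts follow the loss of cyclin D3 and which follow the inhibition of its kinases.

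Each table holds 1 level per group, made by the authors from all samples of that group, so no spread or SD between samples can be given, and depth per sample is unknown. The tables also hold p-values of the authors' own tests, which were not used, and no test was run here. A level is a normalised read signal and depends on the length of the transcript. Levels are compared within a table as the log2 ratio of the treated to the control group. Across tables they are compared only as a relative level, the level in parts per 1000000 of the total of its column, because each pair of groups was normalised separately. Column totals ran from 17810468 to 20756235, over 14763 to 15944 genes. A gene is counted as higher or lower here when its level differed by at least 1.5-fold.

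The targeted gene was lower in each line given its shRNA. *CCND3* was at 19499 with scr and 4727 with shCCND3 in NALM-6, at 16178 and 3353 in RS4;11, and at 6619 and 2060 in BV-173. The knockdown groups thus held 24.2%, 20.7% and 31.1% of the control level. Under palbociclib, *CCND3* was at 78.0%, 81.8% and 76.0% of the DMSO level in the same order of lines. All 12 genes fixed as markers of B-cell precursors were listed in every table, among them *CD79A* and *CD79B*, which encode the signalling chains of the B-cell receptor. Of the 8 T cell markers, 2 to 6 were listed per table, with control levels of 73.8 at most, and of the 6 erythroid and platelet markers 1 to 3 were listed, with control levels of 46.4 at most. Of the 8 myeloid markers 6 or 7 were listed, with control levels up to 508 in RS4;11. All plasma cell markers fixed, 6 genes, were listed throughout, and their control levels reached 50036 (scr group of BV-173). Control levels of the precursor markers ran from 89.9 (scr group of RS4;11) to 25143 (DMSO group of NALM-6). Under palbociclib in BV-173, 2 of the 12 precursor markers were higher and 6 lower, against 13.6% and 11.9% of all genes. Elsewhere 0 to 3 of them were higher and 1 or 2 lower.

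As background, developing B cells change their surface in a fixed order. *CD34* marks stem cells and the earliest progenitors, CD10 and CD38 mark precursor stages, CD24 is carried from the precursor stage on, and CD20, CD22 and CD37 gain in level as B cells mature. CD22 and CD72 carry inhibitory motifs that recruit the phosphatase SHP-1 (encoded by *PTPN6*) and dampen signals of the B-cell receptor. Antibodies, antibody-drug conjugates or engineered T cells have been directed at CD20, CD22, CD37, CD38 and CD52. The data hold RNA only, and fewer cells with a transcript cannot be told apart from less of it per cell in bulk samples.

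In GRCh38.p14 the RefSeq annotation places *MS4A1* (NCBI gene 931) at chr11:60455847-60470752, *CD22* (NCBI gene 933) at chr19:35329187-35347361 and *CD72* (NCBI gene 971) at chr9:35609982-35646857. It places *CD37* (NCBI gene 951) at chr19:49335406-49340606, *CD52* (NCBI gene 1043) at chr1:26317958-26320523 and *CD24* (NCBI gene 100133941) at chr6:106969831-106976855, and *CD38* (NCBI gene 952) at chr4:15778328-15853232, *MME* (NCBI gene 4311) at chr3:155024202-155183729 and *CD34* (NCBI gene 947) at chr1:207880972-207911125.

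Promoter windows are shown for 3 of the genes, *CD72* because its level was higher in 5 of 6 comparisons, and *CD22* and *CD52* because their direction under palbociclib differed between lines. That direction also differed for *MME* and *CD24*, which had 4 and 3 windows and are not shown. Each window holds 250 bases before and 50 bases after an annotated start of transcription in RefSeq (GRCh38.p14), 5′ to 3′ along the gene. Capitals mark the letters GAGGAA, the core bound by PU.1 and other ETS factors, or their reverse complement TTCCTC, and TTTGAA, the core of the cell cycle element CHR, or its reverse complement TTCAAA. The window of *CD72* lies at chr9:35618364-35618663 on the minus strand, that of *CD22* at chr19:35328937-35329236 and that of *CD52* at chr1:26317708-26318007, both on the plus strand.
CD72: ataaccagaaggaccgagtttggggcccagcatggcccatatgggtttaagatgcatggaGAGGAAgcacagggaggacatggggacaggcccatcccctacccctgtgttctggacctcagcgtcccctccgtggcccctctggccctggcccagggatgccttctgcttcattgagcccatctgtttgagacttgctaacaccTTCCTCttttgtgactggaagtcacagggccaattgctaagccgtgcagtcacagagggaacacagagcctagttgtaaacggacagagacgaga
CD22: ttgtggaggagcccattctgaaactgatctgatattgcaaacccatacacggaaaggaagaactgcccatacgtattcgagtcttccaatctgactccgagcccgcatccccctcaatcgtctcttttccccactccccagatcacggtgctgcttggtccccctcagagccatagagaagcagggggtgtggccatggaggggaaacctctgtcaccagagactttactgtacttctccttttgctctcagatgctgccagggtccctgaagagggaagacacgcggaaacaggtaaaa
CD52: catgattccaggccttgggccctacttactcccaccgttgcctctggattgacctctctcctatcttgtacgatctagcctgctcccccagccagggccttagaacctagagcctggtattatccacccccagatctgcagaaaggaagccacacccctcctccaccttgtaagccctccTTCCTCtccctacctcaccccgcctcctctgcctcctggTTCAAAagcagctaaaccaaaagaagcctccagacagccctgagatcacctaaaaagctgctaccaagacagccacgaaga
The *CD72* window held GAGGAA once on each strand, the *CD52* window held it once on the other strand together with 1 match to TTTGAA on the other strand, and the *CD22* window held no match. Over all 35116 windows, 27.9% held GAGGAA on either strand and 15.2% held TTTGAA. The same windows were searched on both strands for CCCNNGGG, the core of EBF1 sites, for the E-boxes CAGGTG and CAGCTG, for the FOXO site GTAAACA, for the E2F sites TTTCCCGC and TTTGGCGC and for the octamer ATGCAAAT. None of these stood in the 3 windows shown, while the shares over all windows were 19.1%, 20.6%, 17.9%, 3.42%, 1.63%, 0.652% and 1.77%. Windows were found for 7 of the 9 genes. Those of *CD38*, *CD34*, *MME* and *CD24* are not printed, and *MS4A1* and *CD37* had no entry. The windows not printed did hold matches. CAGGTG stood in windows of *CD38*, *MME* and *CD24*, CCCNNGGG in windows of *MME* and *CD24*, and GAGGAA in that of *CD34*. A match is a string of letters and not a measured site.

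*MS4A1* encodes CD20, a membrane protein of B cells and the target of rituximab. Of the 9 genes it had the log2 ratio farthest from 0. In NALM-6 it was at 4.54 with DMSO and 142 with palbociclib, 31.2-fold higher (log2 ratio 4.97), which ranked 3 from the highest of 15614 genes. In RS4;11 it was at 14.2 with scr and 240 with shCCND3, 16.9-fold higher (log2 ratio 4.07), which ranked 2 of 15944 genes. In BV-173, the line with the highest control level, it was at 205 with DMSO and 1517 with palbociclib, 7.40-fold higher, and ranked 10 of 14797 genes. The other comparisons gave smaller differences. In NALM-6 the levels were 148 with scr and 248 with shCCND3 (log2 ratio 0.74). In RS4;11 they were 6.25 with DMSO and 18.0 with palbociclib (log2 ratio 1.52), and in BV-173 1604 with scr and 1676 with shCCND3 (log2 ratio 0.06). *MS4A1* was thus higher in 5 of 6 comparisons, and the treatment with the larger log2 ratio was palbociclib in NALM-6 and BV-173 and the knockdown in RS4;11.

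The *MS4A1* values rest on controls that were far apart. Its relative level in NALM-6 was 8.10 with scr and 0.233 with DMSO, a 34.7-fold gap that ranked 2 among 14830 genes compared between those controls. In BV-173 it was 82.9 with scr and 10.6 with DMSO, a 7.80-fold gap that ranked 42 of 14070 genes, and in RS4;11 the gap was 2.36-fold. The palbociclib groups reached relative levels of 7.97 in NALM-6 and 75.3 in BV-173, close to the scr levels of those lines. Of all genes, 26.9%, 18.9% and 21.0% differed by at least 1.5-fold between the controls of the 3 lines. Transduction, sorting, day of collection and separate normalisation cannot be told apart as sources of the gap. With a level under 10 in the DMSO groups of NALM-6 and RS4;11, the ratio also depended on the constant added to the levels. With 10 added to both levels the log2 ratio in NALM-6 was 3.38 under palbociclib, and in RS4;11 it was 0.78 under palbociclib and 3.37 under the knockdown.

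**Figure D1:**
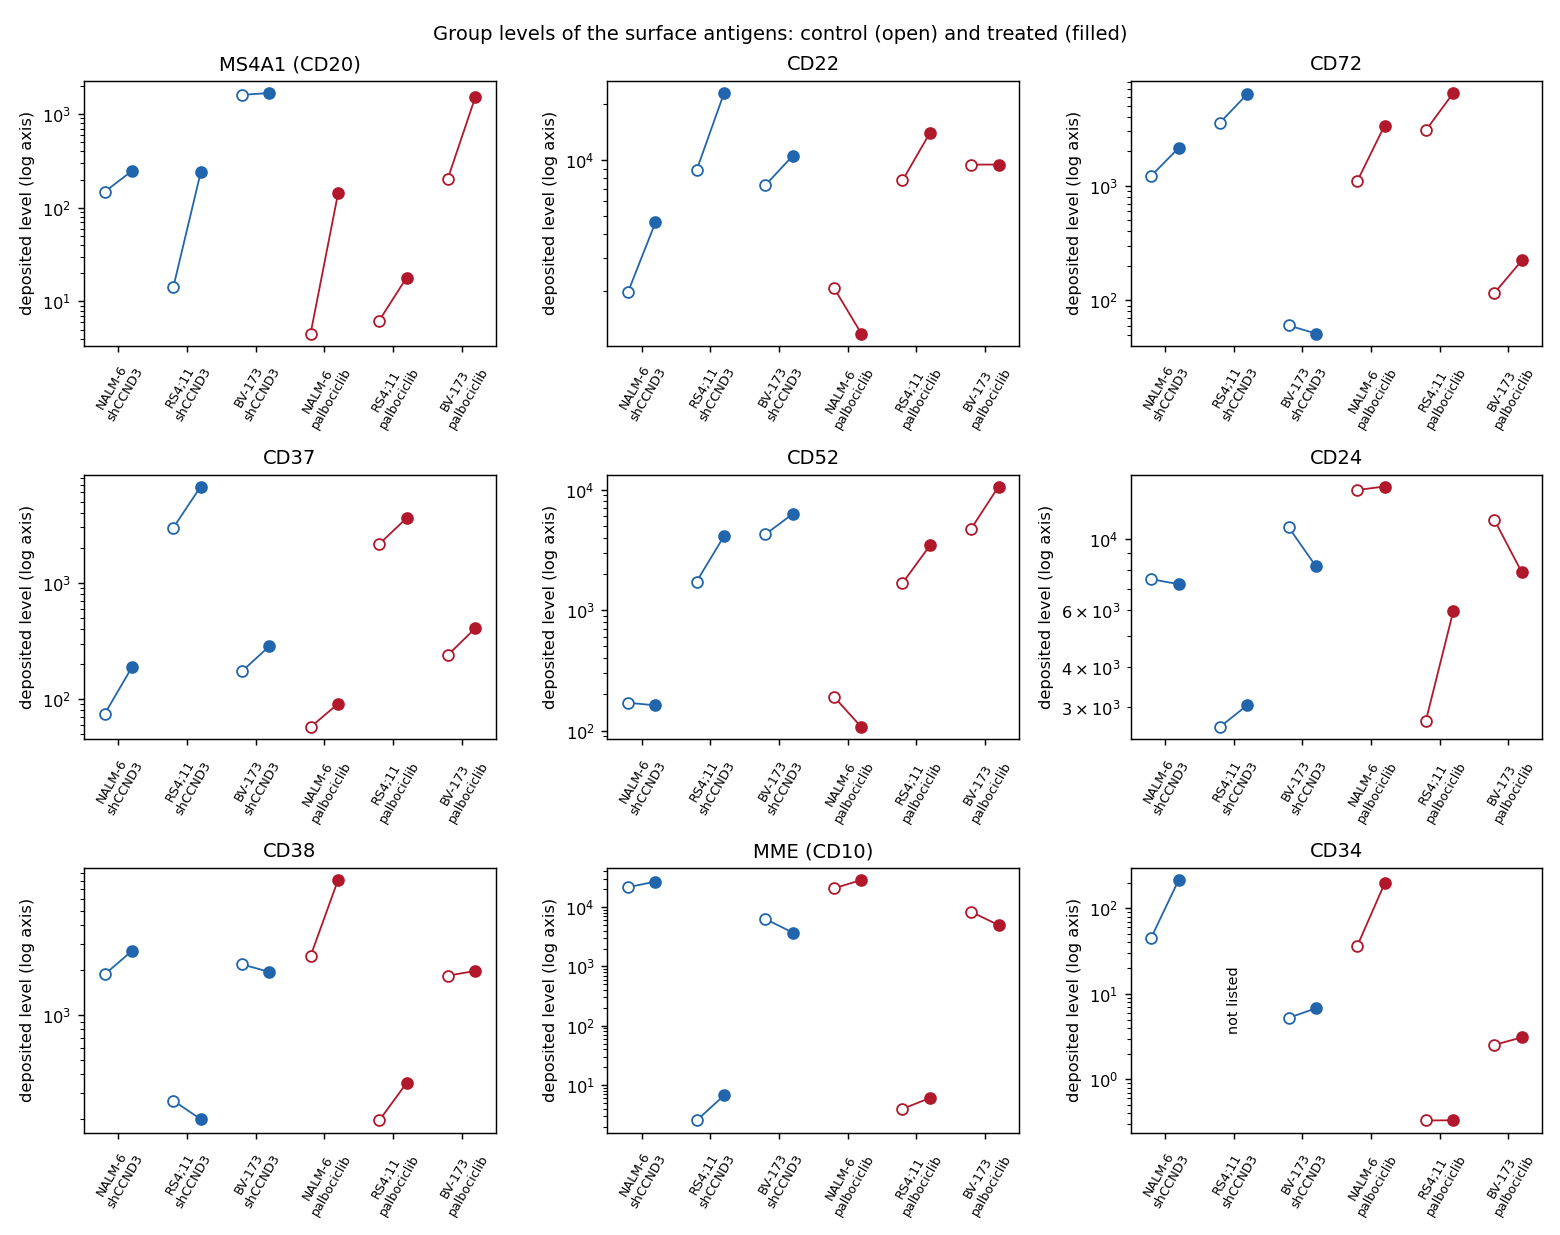
Deposited level (log axis, scale differing between panels) of each of the 9 genes in the control group (open circles) and the treated group (filled circles) of the 6 comparisons, the knockdown in blue and palbociclib in red, with 1 pooled value per group and no error. All 6 lines of *CD37* slope upward, while those of *CD22*, *CD52* and *MME* slope both ways.

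*CD37* encodes a tetraspanin of mature B cells. It was the only 1 of the 9 genes that was higher in all 6 comparisons, as were 38 of the 13307 genes listed throughout (0.286%). Under the knockdown its level went from 74.3 to 189 in NALM-6, from 2979 to 6735 in RS4;11 and, in BV-173, up to 285, which was 1.64-fold the scr level. The log2 ratios were 1.34, 1.18 and 0.72, with a mean of 1.08 over the lines. Under palbociclib the level went from 57.4 to 90.9 in NALM-6, from 2152 to 3610 in RS4;11 and from 239 to 406 in BV-173. Those log2 ratios were close to each other, at 0.66, 0.75 and 0.76, with a mean of 0.72. The ratio in NALM-6 under palbociclib lay near the 1.5-fold limit (1.58-fold), and it was 0.58, just under the limit, with 10 added to both levels. The gene *SLC6A16* overlaps *CD37* over 4925 bases of its annotated span, and its own level was between 0.484 and 16.7 in the 12 groups.

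*CD22* encodes a sialic acid-binding inhibitory receptor, the target of inotuzumab ozogamicin. Its level was higher with the knockdown in NALM-6, at 1964 with scr and 4631 with shCCND3 (log2 ratio 1.24), and in RS4;11, at 8811 and 22781 (log2 ratio 1.37). In BV-173 it was at 7310 with scr and 10520 with shCCND3 (log2 ratio 0.53), under the 1.5-fold limit. Palbociclib went with a different set of values. *CD22* was at 2074 with DMSO and 1180 with palbociclib in NALM-6 (log2 ratio −0.81), at 7772 and 13964 in RS4;11 (log2 ratio 0.85) and at 9441 and 9445 in BV-173 (log2 ratio 0.00). In NALM-6 the 2 treatments therefore lay on opposite sides of their controls, and the knockdown ratio exceeded the palbociclib ratio by 2.05 on the log2 scale. The scr and DMSO levels of *CD22* in NALM-6 were both 107 on the relative scale. The controls were thus alike for this gene, although 26.9% of all genes differed by at least 1.5-fold between them.

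*CD72* encodes a C-type lectin-like inhibitory coreceptor that also recruits SHP-1. It was higher with palbociclib in all 3 lines, at 1094 with DMSO and 3363 with the drug in NALM-6, at 3049 and 6459 in RS4;11 and at 116 and 223 in BV-173. The log2 ratios were 1.62, 1.08 and 0.95, with a mean of 1.22. With the knockdown it was higher in NALM-6, from 1224 to 2143, and in RS4;11, from 3556 to 6342, with log2 ratios of 0.81 and 0.83. In BV-173 it was at 60.4 with scr and 51.3 with shCCND3 (log2 ratio −0.24). The scr level in BV-173 was 0.519 of the DMSO level on the relative scale, so the controls of that line also differed by over 1.5-fold for this gene.

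*CD52* encodes the small GPI-anchored glycoprotein that alemtuzumab binds. Its direction differed by line. In RS4;11 it was higher with both treatments, at 1723 with scr and 4111 with shCCND3, and at 1673 with DMSO and 3436 with palbociclib (2.39-fold and 2.05-fold). In BV-173 it was at 4240 with scr and 6270 with shCCND3, and at 4727 with DMSO and 10595 with palbociclib (log2 ratios 0.56 and 1.16), the first of which missed the 1.5-fold limit. NALM-6 had the lowest levels, 170 with scr, 162 with shCCND3, 191 with DMSO and 107 with palbociclib, and there the drug ratio was negative (log2 ratio −0.84). The gene *UBXN11* overlaps 398 bases of the annotated *CD52* span and was at 140 to 413 in the 12 groups, a range like that of *CD52* in NALM-6. How reads of overlapping genes were divided, and whether strand was used, is not given in the sources used here.

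**Figure D2:**
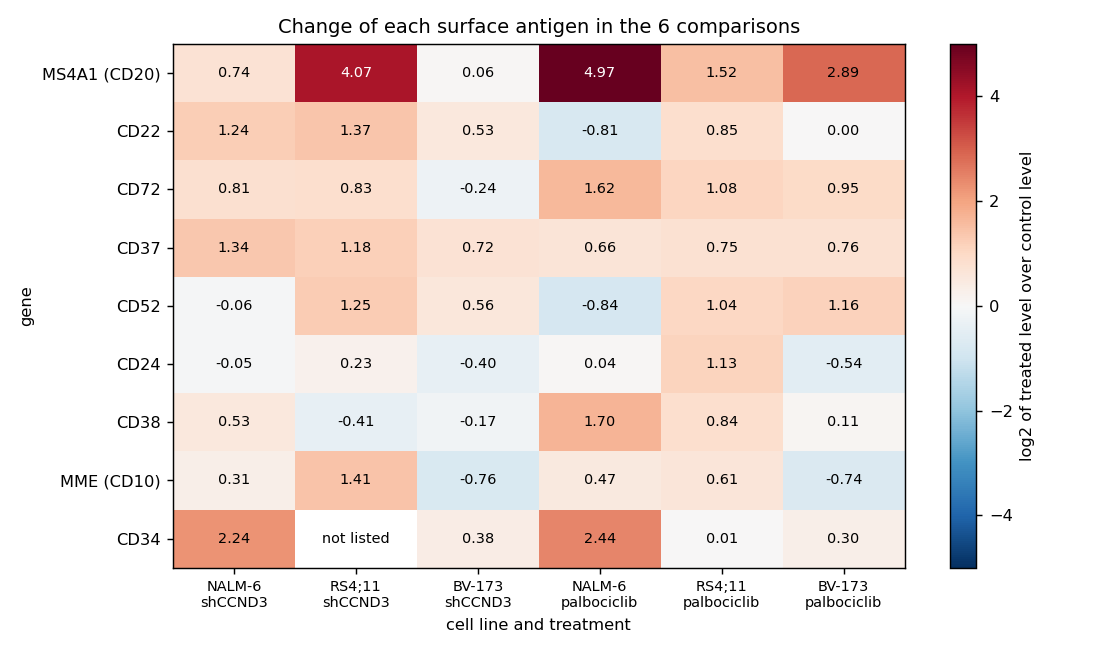
Log2 ratio of the treated to the control level for each of the 9 genes (rows) in the 6 comparisons (columns), with red for higher and blue for lower, printed in each cell. *MS4A1* holds the largest values, 4.97 and 4.07, and the negative values past the 1.5-fold limit are those of *CD22* and *CD52* in NALM-6 with palbociclib and *MME* in BV-173 with both treatments.

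*MME* encodes CD10, a membrane metallopeptidase also called the common ALL antigen. It was lower in BV-173 with both treatments, at 6296 with scr and 3723 with shCCND3, and at 8310 with DMSO and 4966 with palbociclib (log2 ratios −0.76 and −0.74). The knockdown value ranked 289 from the lowest of 14763 genes. In NALM-6, which had the highest levels, *MME* was at 21604 with scr and 26810 with shCCND3, and at 20619 with DMSO and 28579 with palbociclib (log2 ratios 0.31 and 0.47), neither past 1.5-fold. RS4;11 had nearly none of this transcript, with levels of 2.53, 6.70, 3.98 and 6.05 in the scr, shCCND3, DMSO and palbociclib groups. Its ratios there, 1.41 and 0.61, were 0.41 and 0.20 with 10 added to both levels.

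*CD24* encodes a small GPI-anchored sialoglycoprotein. It was higher in 1 comparison, palbociclib in RS4;11, at 2720 with DMSO and 5954 with the drug (log2 ratio 1.13). In the same line it was at 2608 with scr and 3049 with shCCND3 (log2 ratio 0.23). NALM-6 had 7488 with scr and 7226 with shCCND3, and 14148 with DMSO and 14502 with palbociclib, so the ratios of −0.05 and 0.04 were smaller than the gap between its controls, whose scr level was 0.563 of the DMSO level on the relative scale. In BV-173 the treated groups had the lower levels, 8206 against 10858 with the knockdown and 7858 against 11425 with palbociclib (log2 ratios −0.40 and −0.54). *CD24* has 5 annotated pseudogene copies, none of which was listed in the tables, and reads from near-identical copies can be assigned to the gene or lost, so its level is uncertain.

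*CD38* encodes an ectoenzyme that consumes NAD and is the target of daratumumab. With palbociclib it was at 8070 against 2487 in NALM-6 (log2 ratio 1.70), at 349 against 195 in RS4;11 (log2 ratio 0.84) and at 1975 against 1835 in BV-173 (log2 ratio 0.11). With the knockdown no line passed 1.5-fold. The levels were 1873 with scr and 2698 with shCCND3 in NALM-6, 265 and 199 in RS4;11, and 2186 and 1944 in BV-173, with log2 ratios of 0.53, −0.41 and −0.17. In each line the palbociclib ratio was the larger, with the widest gap in RS4;11 (0.84 against −0.41), a gap of 1.17 in NALM-6 and one of 0.28 in BV-173 on the log2 scale.

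*CD34* encodes a sialomucin of stem and progenitor cells. It was higher in NALM-6 with both treatments, at 45.4 with scr and 214 with shCCND3, and at 36.0 with DMSO and 195 with palbociclib. The log2 ratios of 2.24 and 2.44 ranked 18 of 15409 and 191 of 15614 genes. The other lines had little of the transcript, with 5.23 and 6.78 in the scr and shCCND3 groups of BV-173, 2.53 and 3.10 in its DMSO and palbociclib groups, and 0.331 and 0.333 in the DMSO and palbociclib groups of RS4;11. Log2 ratios of genes with levels under 1 were narrow in RS4;11 with palbociclib, where the central 90% spanned 1.27 against 3.45 for genes from 10 to 100, so the ratio near 0 of *CD34* there says little. For genes from 1 to 10 in BV-173 the span was 1.09 with the knockdown and 2.10 with palbociclib. It was wider for genes from 10 to 100, at 1.48 and 2.80, and was 1.08 and 1.94 for genes at 100 and over.

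Counted by comparison, more of the 9 genes were higher than lower except in BV-173 with the knockdown. With the knockdown in NALM-6, 5 of 9 were higher (7.82% of all genes) and 0 lower (8.47% of all genes). In RS4;11, 6 of 8 were higher (9.73% of all genes) and 0 lower (9.72%), and in BV-173 1 was higher, *CD37* (3.32% of all genes), and 1 lower, *MME* (4.78%). With palbociclib in NALM-6, 5 were higher (21.4% of all genes) and 2 lower, *CD22* and *CD52* (14.9%). In RS4;11, 8 of 9 were higher (16.7% of all genes) and 0 lower (15.0%), with *CD34* the exception. Of those 8, *MS4A1* and *MME* had DMSO levels under 10, and 6 were higher with a level of at least 10 required in both groups. In BV-173 with palbociclib 4 were higher (13.6%) and 1 lower, *MME* (11.9%). The genes were chosen with these values known, so nothing is read from the gap between their counts and those of all genes. Over the listed pairs of gene and comparison, 12 of 26 were higher and 1 lower with the knockdown, and 17 of 27 were higher and 3 lower with palbociclib. The median log2 ratio of the 9 genes was 0.74, 1.22 and 0.06 with the knockdown and 0.66, 0.85 and 0.30 with palbociclib in the 3 lines, against medians of all genes between −0.01 and 0.06.

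**Figure D3:**
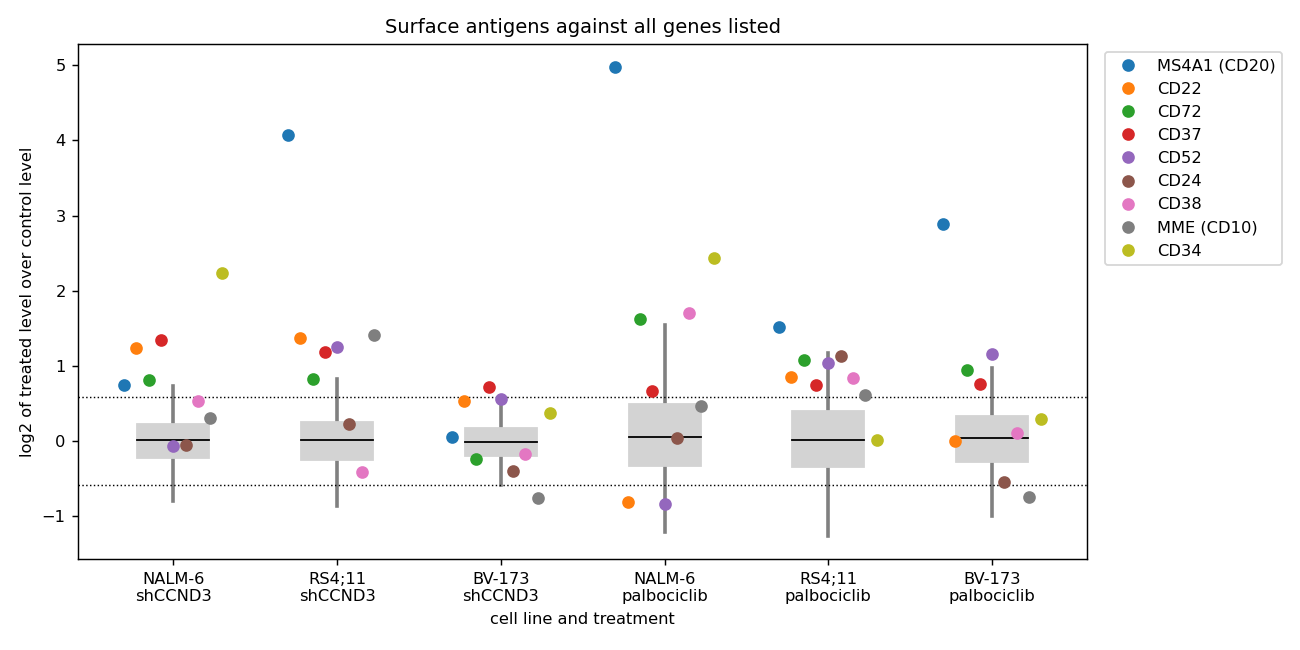
Log2 ratio of the treated to the control level of the 9 genes (coloured points) over all genes listed in each comparison (grey box, 25th to 75th percentile, with the median as a black line and a grey bar from the 5th to the 95th percentile). Dotted lines mark 1.5-fold, and the grey bars are wider with palbociclib, from −1.21 to 1.54 in NALM-6, than with the knockdown, from −0.79 to 0.73 in that line.

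The control groups gave each line its own surface pattern. The relative level of *MME* in the 3 lines was 1180, 0.133 and 325 with scr, and 1060, 0.201 and 431 with DMSO, the widest range of the 9 genes. *CD37* was highest in RS4;11 in both controls, at 156 against 4.06 in NALM-6 and 8.95 in BV-173 with scr. *CD72* was also highest in RS4;11, at 187 with scr, and lowest in BV-173, at 3.12. These orders held in both controls. *CD52* went the other way between the same lines, with 9.27, 90.5 and 219 in the 3 lines with scr and 9.82, 84.6 and 245 with DMSO. *CD22* was lowest in NALM-6 in both controls, while RS4;11 was above BV-173 with scr (463 and 378) and below it with DMSO (393 and 490), so the order of those lines was not settled. *CD24* and *CD38* were lowest in RS4;11 in both controls, at 137 and 13.9 with scr, and the order of NALM-6 and BV-173 changed between the controls for both genes.

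Scaled by transcript length, which allows genes to be compared, the order of levels differed between the lines. *MME* and *CD24* led in NALM-6, at length-scaled relative levels of 484 and 426 with scr and 401 and 705 with DMSO, so their order depended on the control. *CD52* led in RS4;11, at 371 with scr and 342 with DMSO, followed by *CD22* at 320 and 269. *CD52* also led in BV-173, at 862 and 970, followed by *CD24* at 533 and 565. *MS4A1* was among the lowest in NALM-6 and RS4;11, at 5.32 and 0.471 with scr and 0.147 and 0.189 with DMSO. In BV-173 it was at 50.3 with scr, above 4 of the other genes, and at 6.38 with DMSO, where *CD34* alone was lower. *CD34* was the lowest in both controls of BV-173, at 0.203 and 0.103.

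**Figure D4:**
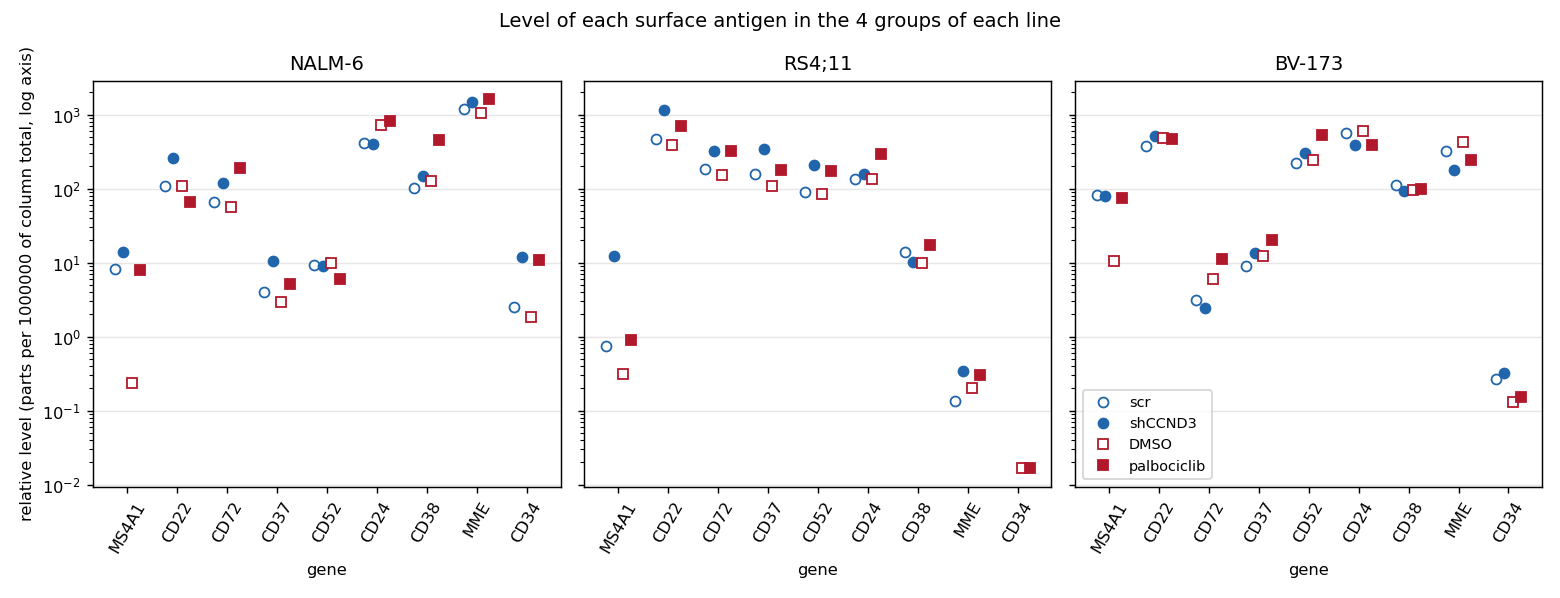
Relative level in parts per 1000000 of the column total (log axis) of the 9 genes in the scr (open circle), shCCND3 (filled circle), DMSO (open square) and palbociclib (filled square) groups of each line, 1 pooled value per group. *MME* spans from 0.133 in RS4;11 to 1180 in NALM-6 with scr, and *MS4A1* in NALM-6 stands out, with DMSO at 0.233 and the other 3 groups between 7.97 and 13.8.

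Genes of cell division had lower levels alongside these values. Of 20 proliferation genes, all were lower by at least 1.5-fold in 5 comparisons, and 6 were lower in BV-173 with the knockdown. Their median log2 ratio was −1.29, −1.71 and −0.48 with the knockdown and −2.94, −5.61 and −1.75 with palbociclib in the 3 lines. *MKI67*, the marker Ki-67, went from 13895 to 97.3 in RS4;11 with palbociclib. BV-173 with the knockdown had the proliferation median closest to 0, the smallest count of antigens that were higher and the smallest share of all genes that were higher (3.32%). With the knockdown, 1, 5 and 6 antigens were higher in BV-173, NALM-6 and RS4;11, at proliferation medians of −0.48, −1.29 and −1.71. With palbociclib 4, 5 and 8 were higher in that order of lines, at medians of −1.75, −2.94 and −5.61. Of all genes, 3.32%, 7.82% and 9.73% were higher with the knockdown and 13.6%, 21.4% and 16.7% with palbociclib. Across the treatments the order was not kept, since 4 were higher with palbociclib in BV-173 and 5 with the knockdown in NALM-6. The part of proliferation in the antigen values was not tested.

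Other surface antigens of the B lineage were counted from a list of 69 genes, written like the other lists with earlier results of these data known. With the knockdown, 12 of 64 were higher and 6 lower in NALM-6, 27 of 66 and 3 in RS4;11, and 11 of 63 and 2 in BV-173. With palbociclib, 26 of 64 were higher and 6 lower in NALM-6, 32 of 66 and 5 in RS4;11, and 22 of 64 and 5 in BV-173. As shares, 18.8%, 40.9% and 17.5% were higher with the knockdown, against 7.82%, 9.73% and 3.32% of all genes. With palbociclib 40.6%, 48.5% and 34.4% were higher, against 21.4%, 16.7% and 13.6%. The lower shares were 9.38%, 4.55% and 3.17% with the knockdown, against 8.47%, 9.72% and 4.78% of all genes. They were 9.38%, 7.58% and 7.81% with palbociclib, against 14.9%, 15.0% and 11.9%. The medians of the log2 ratios over the listed genes were 0.09, 0.32 and 0.08 with the knockdown and 0.37, 0.52 and 0.17 with palbociclib in the 3 lines, against −0.01 to 0.06 over all genes. *TNFRSF13C*, the receptor for the survival factor BAFF, was higher in all 6 comparisons, with log2 ratios from 0.78 to 2.33. Its levels in NALM-6 were 349 with scr, 938 with shCCND3, 200 with DMSO and 1004 with palbociclib. *FCMR*, the Fc receptor for IgM, was higher in all 6 as well, with log2 ratios from 0.70 to 2.38. *CD180*, a Toll-like receptor homologue of B cells, was higher in 4 of 6, and *IL3RA*, the alpha chain of the interleukin 3 receptor, in 5 of 6.

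Among 22 other targets of antibodies, conjugates or engineered T cells, 5 of 21, 11 of 22 and 4 of 20 were higher and 2, 0 and 0 lower with the knockdown in the 3 lines. Of all genes, 7.82%, 9.73% and 3.32% were higher and 8.47%, 9.72% and 4.78% lower in those comparisons. With palbociclib 4 of 19, 9 of 21 and 4 of 19 were higher and 3, 2 and 2 lower. In NALM-6 those shares, 21.1% higher and 15.8% lower, were close to the 21.4% and 14.9% of all genes. In RS4;11 and BV-173 42.9% and 21.1% were higher, against 16.7% and 13.6% of all genes. There 9.52% and 10.5% were lower, against 15.0% and 11.9% of all genes. *CD74*, the invariant chain of MHC class II, was higher in 5 of 6, with a log2 ratio of −0.31 in NALM-6 with the knockdown.

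Families of the 9 genes gave the following counts. Of the 4 to 5 other *MS4A* genes listed with palbociclib, 2, 3 and 2 were higher in the 3 lines, at control levels of 37.4 or less. Of all genes, 21.4%, 16.7% and 13.6% were higher there, and the *MS4A* genes listed were few. Of 15 other tetraspanins, the family of *CD37*, 14 or 15 were listed. With the knockdown 0, 5 and 1 were higher and 2, 1 and 0 lower in the 3 lines. With palbociclib 4, 5 and 3 were higher and 2, 1 and 0 lower. Of all genes, 7.82%, 9.73% and 3.32% were higher and 8.47%, 9.72% and 4.78% lower with the knockdown. With palbociclib 21.4%, 16.7% and 13.6% were higher and 14.9%, 15.0% and 11.9% lower. *CD53* was higher in 4 of 6 comparisons and *CD82* was higher in 4 and lower in 1. In the Siglec family of *CD22*, 6 to 8 other genes were listed. Of these, 1, 3 and 1 were higher and 0, 0 and 0 lower with the knockdown, against the same shares of all genes. With palbociclib 0, 1 and 3 were higher and 2, 1 and 0 lower. *CD33* was higher in 3 comparisons and *SIGLEC10* in none. Of 11 or 12 other GPI-anchored proteins of leukocytes listed, 1, 5 and 3 were higher and 0, 1 and 0 lower with the knockdown. With palbociclib 4, 4 and 6 were higher and 1, 0 and 0 lower, again against the same shares of all genes. Among them, *CD48* shared the signs of *CD52* in all 6 comparisons. Its log2 ratios were −0.11, 0.98 and 0.85 with the knockdown and −0.71, 1.00 and 0.97 with palbociclib. *PTPN6*, which encodes the SHP-1 phosphatase used by CD22 and CD72, was at 4646 with scr and 2913 with shCCND3 in NALM-6 (log2 ratio −0.67), and was higher in 4 of the other comparisons. Of 25 partners of CD22 and CD72 in B-cell receptor signalling, 4, 8 and 2 were higher with the knockdown and 10, 8 and 5 with palbociclib. The share that was higher was 16.0% in NALM-6 and 32.0% in RS4;11 with the knockdown, against 7.82% and 9.73% of all genes, and 2 of 25 in BV-173, against 3.32%. It was 40.0%, 32.0% and 20.0% with palbociclib, against 21.4%, 16.7% and 13.6%. Lower with the knockdown were 1, 0 and 2 of these 25 partners, against 8.47%, 9.72% and 4.78% of all genes. Lower with palbociclib were 0, 0 and 2 of the 25, against 14.9%, 15.0% and 11.9%. Ectoenzymes, the group of *CD38* and *MME*, had 0, 1 and 0 higher and 1, 2 and 1 lower with the knockdown, and 4, 4 and 2 higher and 0, 1 and 1 lower with palbociclib, of 10 or 11 listed. Of all genes, 7.82%, 9.73% and 3.32% were higher and 8.47%, 9.72% and 4.78% lower with the knockdown. With palbociclib 21.4%, 16.7% and 13.6% of all genes were higher and 14.9%, 15.0% and 11.9% lower. With so few ectoenzymes listed, these counts are descriptions only. *ECE1*, a metallopeptidase of the family of *MME*, was lower in 4 comparisons.

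Likeness of pattern was measured by Pearson's r of the log2 relative level over the 12 groups, among 10194 genes with a level of at least 10 in every group. The 12 groups came from 3 lines with 4 groups each, so groups of 1 line share their cells and r includes the differences between lines. The genes closest to *MS4A1* were *ATP6V0B* (r = 0.941) and *PGS1* (r = 0.929), and those closest to *CD22* were *ADAMTS10* (r = 0.965) and *PLXNB2* (r = 0.955). *CD72* was closest to *ABCB4* and *WDR11* (both r = 0.986), and *CD37* to *PGPEP1* (r = 0.988) and *MYO7B* (r = 0.986). *CD52* was closest to *IFITM1* (r = 0.988) and *SMAD3* (r = 0.982), and *MME* to *MAP7D3* (r = 0.990) and *NBPF26* (r = 0.988). *TAF9* was among the closest genes of both *CD24* (r = 0.939) and *CD38* (r = 0.966), beside *OSR2* (r = 0.930) and *UBE2E2* (r = 0.975). *CD34* was not listed in every group.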

How the data were processed

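RNA of 34 samples in 12 groups was measured by RNA-seq after oligo(dT) enrichment. Per the labels and design text, the authors cleaned the reads (SOAPnuke), aligned them to hg38 (Bowtie2), quantified transcripts (RSEM) and tested each treated group against its control (DESeq2). Versions are not given in the sources used here. The authors' deposited tables hold 1 normalised signal per group and gene, the gene length, and their own fold changes and p-values with the direction, which were not used. Values per sample and depth per sample were not analysed here, so no test was run. Log2 ratios, counts past 1.5-fold and relative levels (parts per 1000000 of the column total) were computed without a pseudocount in Python 3.11.15 with numpy 2.4.6 and pandas 2.3.3, and figures were drawn with matplotlib 3.10.9. The counting past a fold limit and the search for the nearest pattern were run on simulated levels with known answers. The simulated fold changes held no noise, so this checked the code and not the results. Other steps were not run on such data. Samples were grouped by line and treatment as labelled.

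The 9 genes, the gene lists and the tests were chosen with earlier results of these data known. Named genes were the 9 genes, *CCND3*, up to 4 genes of each list with the largest absolute mean log2 ratio over the 6 comparisons, among those at a level of at least 10 in both groups of each, and the 2 genes nearest in pattern to each of the 9. Of these, 1 gene is not reported here. Positions and promoter windows are from RefSeq (GRCh38.p14), matched by gene identifier. Alternatives were a pseudocount of 1 or 10, relative levels, median-centred ratios, other fold limits, a minimum level and leaving out each line.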

Additional observations from a re-analysis of the deposited data

How the results depend on the processing

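No paired analysis was possible because the tables hold 1 pooled value per group, and for the same reason no replicate could be left out and no spread or depth limit can be given. No log2 ratio of the 9 genes past 1.5-fold changed sign under a pseudocount of 1 or 10, relative levels or median-centred ratios. With a pseudocount of 10, 4 of the 53 ratios moved by more than 1.5-fold, *MS4A1* to 3.37 with the knockdown in RS4;11 and to 3.38 in NALM-6 and 0.78 in RS4;11 with palbociclib, and *MME* to 0.41 with the knockdown in RS4;11. The mean of *MS4A1* over the lines with palbociclib was then 2.33 instead of 3.13. The ratio of *CD37* in NALM-6 with palbociclib went from 0.66 to 0.58 and that of *MME* in RS4;11 with palbociclib from 0.61 to 0.20, both under the 1.5-fold limit. On relative levels, *CD24* in BV-173 with palbociclib was at −0.60, which made 2 genes lower instead of 1, and *MME* in NALM-6 with palbociclib was at 0.60, past the limit.

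With a level of at least 10 required in both groups, the count of higher genes was 5 instead of 6 with the knockdown in RS4;11, and with palbociclib 4 instead of 5 in NALM-6 and 6 instead of 8 in RS4;11, where a pseudocount of 1 gave 7. At a limit of 2-fold, 3 genes were higher with the knockdown in NALM-6 and 0 in BV-173, and 4 and 2 with palbociclib in RS4;11 and BV-173. None was lower at 2-fold in any comparison, so the counts for the knockdown in BV-173 and for palbociclib in NALM-6 and BV-173 became 0. At a limit of 0.32 on the log2 scale, 1 was lower with the knockdown in RS4;11, 4 were higher and 2 lower with the knockdown in BV-173, and 2 were lower with palbociclib in BV-173. Means over the lines rested on single lines for 3 genes. Without RS4;11, the mean of *MS4A1* was 0.40 with the knockdown and 3.93 with palbociclib, without BV-173 2.41 with the knockdown, and without NALM-6 2.21 with palbociclib. Without NALM-6, *CD52* had a mean of 1.10 with palbociclib, and *CD34* had 0.38 with the knockdown and 0.15 with palbociclib. Without BV-173 the mean of *CD34* with the knockdown was 2.24, a single line. The cause of these shifts was not tested beyond the fewer lines and the added constant. Of the values of the gene lists, 89 of the counts moved by over 1.5 times at 2-fold and 103 did not.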

Other observations

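Transcription factors of the B lineage, which regulate several of these surface genes, were counted from a list of 38 genes. With the knockdown, 4, 6 and 4 were higher and 5, 2 and 8 lower in the 3 lines (NALM-6, RS4;11, BV-173), and with palbociclib 9, 9 and 5 were higher and 1, 3 and 13 lower. The share that was higher was 10.5%, 15.8% and 10.5% with the knockdown and 23.7%, 23.7% and 13.2% with palbociclib, against 7.82%, 9.73%, 3.32%, 21.4%, 16.7% and 13.6% of all genes. The share that was lower was 13.2%, 5.26% and 21.1% with the knockdown, against 8.47%, 9.72% and 4.78% of all genes. With palbociclib it was 2.63%, 7.89% and 34.2%, against 14.9%, 15.0% and 11.9%. *POU2F2*, which encodes the octamer-binding factor OCT2, was higher in all 6 comparisons, with log2 ratios of 1.66, 1.19 and 0.89 with the knockdown and 0.91, 1.41 and 1.23 with palbociclib. Its levels in NALM-6 were 522 with scr, 1643 with shCCND3, 316 with DMSO and 594 with palbociclib. *IRF8*, a factor of B cell and myeloid development, was higher in 5 of 6, from 113 with DMSO to 674 with palbociclib in BV-173. *ETS1* was lower in 3 comparisons, with log2 ratios of −1.43 and −1.51 with palbociclib in NALM-6 and BV-173 and −0.88 with the knockdown in BV-173. *IKZF2*, which encodes Helios, was lower in RS4;11 with both treatments, from 513 to 155 with palbociclib and from 468 to 254 with the knockdown.

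*BTK*, the kinase downstream of the B-cell receptor, was higher with the knockdown in NALM-6, from 3088 to 5945, and in RS4;11, from 3139 to 5542, and with palbociclib in NALM-6, from 3639 to 6372. Among GPI-anchored proteins, *BST2*, an interferon-inducible antiviral protein, was higher in 5 of 6 comparisons with log2 ratios up to 1.26, and *SEMA7A*, a semaphorin, in 5 of 6 with log2 ratios up to 2.07. *DNTT*, the terminal transferase of precursor cells, was lower in RS4;11 with both treatments (log2 ratios −0.84 and −1.19) and in BV-173 with palbociclib (log2 ratio −0.70). Of the sialomucins, the group of *CD34*, 1 of 6, 1 of 5 and 0 of 6 listed were higher with the knockdown and 3, 2 and 1 of 6 with palbociclib. Of all genes, 7.82%, 9.73% and 3.32% were higher with the knockdown and 21.4%, 16.7% and 13.6% with palbociclib. With so few sialomucins listed, these counts are descriptions only. *PODXL* had log2 ratios from 0.08 to 0.51. *SELPLG*, the ligand of P-selectin, was higher in 4 comparisons, with a log2 ratio of 4.26 in NALM-6 with palbociclib. It was chosen after its values were seen and falls outside the rule for named genes. *SELPLG* missed the minimum level of that rule in some group, and its levels are not given here. The ratio of 4.26 may therefore rest on a low level.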
